A study of Mus musculus with 30 samples.

Results

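The Hox genes are the homeobox genes that stand in the 4 Hox clusters, and all genes of the count table named Hoxa, Hoxb, Hoxc or Hoxd with a paralog number were taken, 39 of 33924 genes. The HoxA cluster has 11 of them, HoxB 10, HoxC 9 and HoxD 9. Their reads were counted in bulk RNA-seq libraries of mouse thyroid in 10 groups. Mice with Braf V600E, an activating mutation of a kinase that drives MAPK signalling, also lacked Smarcb1, Arid2 or Arid1a, parts of SWI/SNF, a complex that remodels chromatin, or carried Braf V600E alone. Each of these 4 genotypes was given CKI, the MEK inhibitor CH5126766, or vehicle for 8 days, and death followed the final dose by about 2 h. All 8 of these groups share Braf V600E. Untreated Arid1a knockout (KO) mice without the Braf mutation and untreated wild-type mice (WT) make up the other groups. Each group held 3 libraries, except both Braf Arid2 KO groups with 2 each, for 28 libraries. How the alleles were brought about, and in which cells, is not given in the sources used here.

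Hox genes encode transcription factors that set the identity of positions along the body axis of the embryo. Within a cluster the genes stand in the order in which they act, with paralogs of low number towards the head and those of high number towards the tail. Polycomb complexes keep Hox genes silent where they are not used, and Trithorax proteins and SWI/SNF complexes are known for opposing Polycomb. The thyroid forms from the pharynx, where genes of the first paralog groups act, and Hoxa3 is needed in the mouse for the glands of that region.

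Depth was 23879271 to 34400066 counts per library. Smarcb1 itself had 2.28 to 17.9 CPM (its share of a library's counts, scaled by TMM) in Braf Smarcb1 KO under vehicle, against 57.0 to 131 CPM in Braf under vehicle. Under CKI it had 11.9 to 47.4 CPM in Braf Smarcb1 KO, against 187 to 217 CPM in Braf. Smarcb1 was also low in the Arid1a KO libraries, at 15.1 to 62.5 CPM, against 74.8 to 152 CPM in WT. Reads over all of Arid1a and Arid2 do not check those labels, since which part was deleted is not given. The labels describe both flash-frozen thyroids of WT, Arid2 and Smarcb1 mice and sorted YFP+ cells, and attach both texts to every sample, so how tissue was prepared and the genotype cannot be told apart. All 7 thyroid markers were present in every library and summed to 158 to 222 CPM in Braf Smarcb1 KO under vehicle, 408 to 1162 CPM in Braf under vehicle and 60620.2 to 158279 CPM in WT. Parathyroid markers averaged 0.621 to 4.59 on the log2(CPM + 1) scale in the libraries of the other groups, against 7.30 to 9.003 in WT. Braf vehicle replicate 2 stood apart, with the lowest scaling factor (0.723). Overlapping genes may share reads: 11 members overlap another member, among them Hoxa3 over Hoxa4 to Hoxa6 and Hoxc5 over Hoxc6 to Hoxc10, and 14 have a gene on the other strand. Nothing says that the libraries of a group came from separate animals, so each p measures the spread between these libraries. In these bulk samples, fewer cells of a type and less RNA per cell cannot be told apart.

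Most Hox genes were at or near 0 in thyroid, and the libraries that held most of them were those of Braf Smarcb1 KO under CKI. At 1 CPM or more, 19 to 22 members were present in a library of Braf Smarcb1 KO under CKI and 13 to 17 under vehicle. Braf Arid1a KO libraries had 11 to 17 under CKI and 7 to 10 under vehicle, and Braf Arid2 KO libraries had 4 under CKI and 6 to 7 under vehicle. Braf libraries had 8 to 11 under CKI and 5 to 7 under vehicle, Arid1a KO libraries 2 to 5 and WT libraries 6 to 10. The sum over all 39 members was 311 to 431 CPM in Braf Smarcb1 KO under CKI and 130 to 193 CPM under vehicle, and the only other group to overlap the vehicle range was Braf Arid1a KO under CKI, at 63.1 to 193 CPM. It was 47.3 to 90.7 CPM in Braf Arid1a KO under vehicle, 22.2 to 27.2 and 27.3 to 29.6 CPM in Braf Arid2 KO under CKI and vehicle, 25.5 to 53.7 and 21.1 to 23.5 CPM in Braf under CKI and vehicle, 14.3 to 16.6 CPM in Arid1a KO and 19.0 to 33.4 CPM in WT. The map of levels shows the 3 clusters A, B and C filled in along their middle in the Braf Smarcb1 KO columns, and HoxD nearly empty in all columns.

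**Figure D1:**
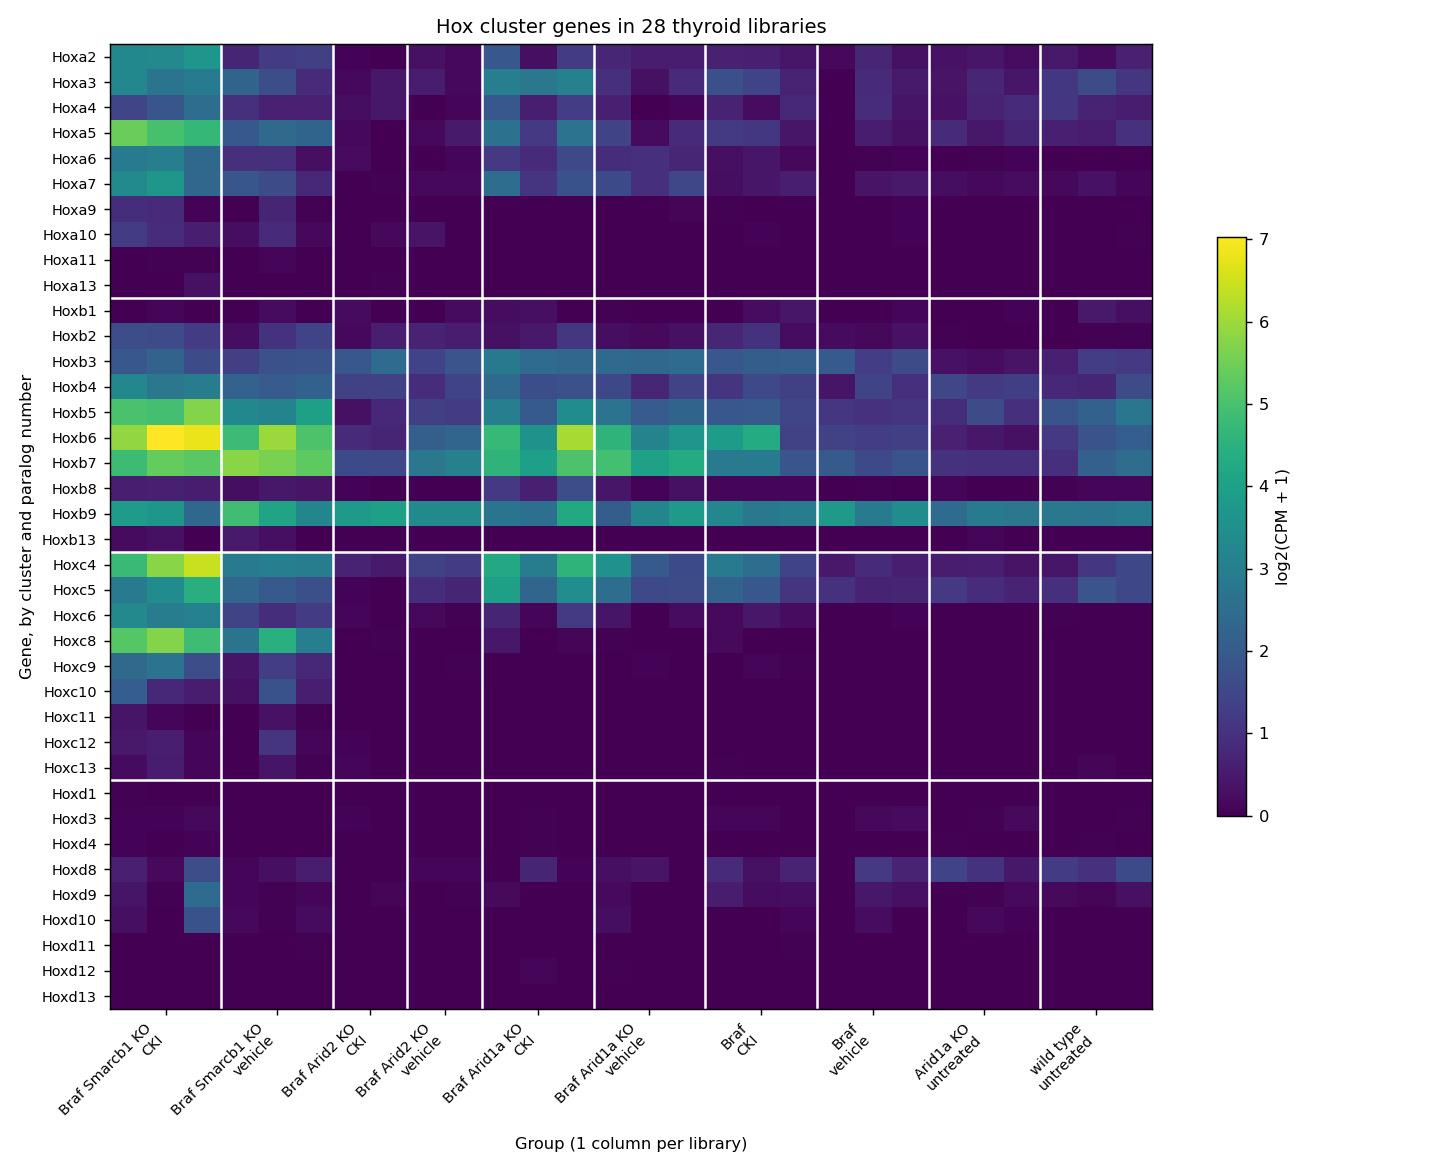
Level of Hox members in each of the 28 libraries, as log2(CPM + 1), with members in cluster and paralog order and libraries by group. Braf Smarcb1 KO libraries hold 13 to 22 members at 1 CPM or more, against 5 to 11 in Braf libraries.

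By cluster, HoxB was the most abundant everywhere. Its sum was 144 to 224 CPM in Braf Smarcb1 KO under CKI and 102 to 141 CPM under vehicle, against 18.5 to 40.8 CPM in Braf under CKI and 14.2 to 22.0 CPM under vehicle. HoxA summed to 60.5 to 81.0 CPM in Braf Smarcb1 KO under CKI and 8.47 to 13.7 CPM under vehicle, against 3.13 to 5.71 and 0.102 to 3.58 CPM in Braf under CKI and vehicle. HoxC summed to 85.2 to 145 CPM in Braf Smarcb1 KO under CKI and 18.4 to 37.7 CPM under vehicle, against 2.996 to 10.6 and 1.22 to 1.43 CPM in Braf. For these 3 clusters the Braf Smarcb1 KO and Braf libraries did not overlap under either treatment. HoxD summed to 0.212 to 9.23 CPM in Braf Smarcb1 KO under CKI, against 0.506 to 1.36 CPM in Braf under CKI. Under vehicle it summed to 0.294 to 0.697 CPM in Braf Smarcb1 KO, against 0 to 1.92 CPM in Braf. The ranges overlapped under both treatments. The highest HoxD value came from 1 library of Braf Smarcb1 KO under CKI, replicate 4, with Hoxd8, Hoxd9 and Hoxd10 at 2.13, 4.54 and 2.401 CPM.

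**Figure D2:**
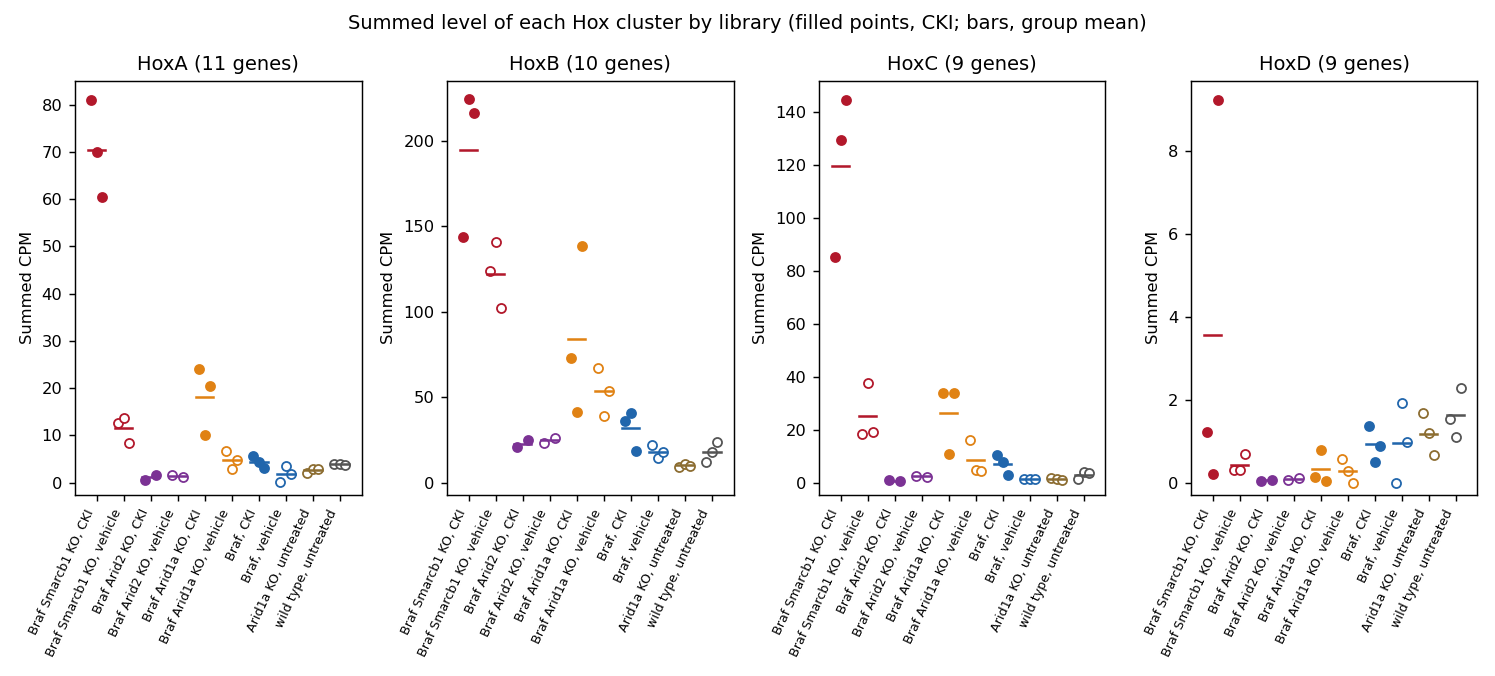
Summed CPM of the members of each Hox cluster in each library, 1 panel a cluster with its own axis, by group (points are libraries, filled under CKI, and bars are group means). HoxA, HoxB and HoxC sums are higher in every Braf Smarcb1 KO library than in every Braf library, and HoxD sums overlap.

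Per kilobase of exon, which lets genes be set against each other, a different gene led in Braf Smarcb1 KO than in Braf under vehicle. Hoxb7 led with 30.2 CPM per kb in Braf Smarcb1 KO under vehicle, followed by Hoxb6 with 20.6 and Hoxb9 with 6.83. In Braf under vehicle Hoxb9 led with 3.77 CPM per kb, followed by Hoxb7 with 1.59 and Hoxb6 with 0.761. Under CKI Hoxb6 had the highest mean in both, with 51.0 CPM per kb (SD 19.0) in Braf Smarcb1 KO and 5.76 (SD 4.49) in Braf. It did not lead in every Braf library, since CKI replicate 5 had 1.62 CPM of Hoxb6 and 6.89 CPM of Hoxb9. Hoxb9 also led in Arid1a KO, with 2.15 CPM per kb, and in WT, with 2.34.

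Each comparison was tested over all 28 libraries with edgeR's quasi-likelihood test, with p-values adjusted by Benjamini-Hochberg over the 19016 genes that passed a filter on low counts and a threshold of 0.05 for a call. Of the 39 members, 28 passed: 9 of HoxA, 9 of HoxB, 8 of HoxC and 2 of HoxD. Only 20 would pass without the Braf Smarcb1 KO libraries. Hoxa9, Hoxa10, Hoxc8, Hoxc9, Hoxc10, Hoxc12, Hoxc13 and Hoxd9 passed only with those libraries, so their calls, p-values and behaviour under alternatives in a Braf Smarcb1 KO comparison are descriptions and support nothing, and medians are given over the 20 others. The 11 members that did not pass had 0 to 124 counts over the 28 libraries: Hoxa11, Hoxa13, Hoxb13, Hoxc11, Hoxd1, Hoxd3, Hoxd4 and Hoxd10 to Hoxd13.

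With Smarcb1 lost, under vehicle, 13 of the 20 members that pass without the Braf Smarcb1 KO libraries rose relative to Braf and 0 fell. Of all tested genes, 14.4% rose and 28.6% were called in either direction. The median log2 fold change of the 20 was 2.42, beside 0.03 over all genes. Hoxa10, Hoxc8, Hoxc9 and Hoxc10, which passed only with those libraries, were called higher too, for 17 of the 28 tested members, 5 in HoxA, 6 in HoxB, 6 in HoxC and 0 in HoxD. The 13 came from paralog groups 2 to 8. Groups 9 and 10 were reached only by Hoxc9, Hoxa10 and Hoxc10, whose calls are descriptions. All 8 members of paralog groups 5, 6 and 7 rose, while 0 members of groups 1 and 11 to 13 did. The plot of fold changes by genotype sets these members beside their values with Arid2 or Arid1a lost.

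**Figure D3:**
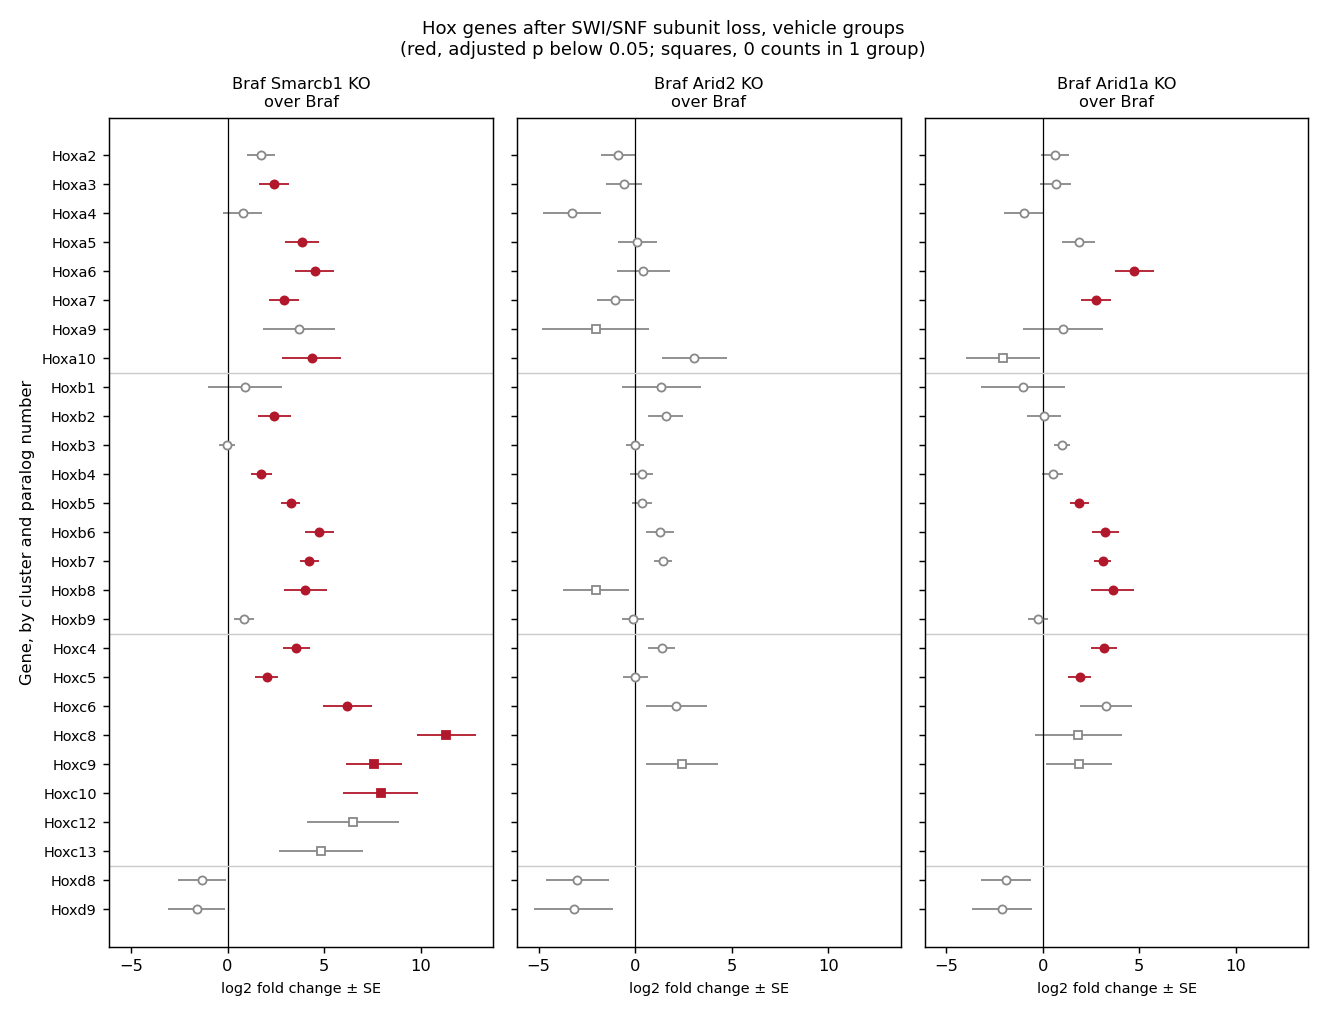
Fitted log2 fold change with its SE (bars) of tested Hox members for Smarcb1, Arid2 and Arid1a KO over Braf, under vehicle, in cluster and paralog order. Red marks an adjusted p under 0.05, and squares mark members with 0 counts in 1 of the groups, whose fitted value is no bound. The tested members called number 17 for Smarcb1, 0 for Arid2 and 8 for Arid1a.

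In HoxA, Hoxa5, which is needed for the trachea and lung of the mouse, had 2.79, 4.38 and 3.78 CPM in Braf Smarcb1 KO under vehicle, against 0, 0.470 and 0.236 CPM in Braf under vehicle. Every Braf Smarcb1 KO library was above every Braf library (log2 fold change 3.87 with SE 0.87, adjusted p = 0.00243). Hoxa7, a trunk gene also known from mixed-lineage leukaemia, averaged 1.82 ± 0.990 CPM in Braf Smarcb1 KO and 0.228 ± 0.204 CPM in Braf (SD, n = 3 each, log2 fold change 2.93 with SE 0.77, adjusted p = 0.00697). Hoxa6, its neighbour, averaged 0.707 ± 0.423 CPM in Braf Smarcb1 KO against 0.0252 ± 0.0218 CPM in Braf. Braf libraries held few Hoxa6 reads, which gives a ratio of 26.6 with a 95% counting interval of 7.08 to 224 (adjusted p = 0.00233). Hoxa10, a gene of the lumbar axis and the uterus, averaged 0.367 ± 0.364 CPM in Braf Smarcb1 KO and 0.0131 ± 0.0227 CPM in Braf, a ratio of 26.99 with an interval of 4.53 to 1097 (adjusted p = 0.0411). Hoxa3 had 3.77, 2.22 and 0.770 CPM in Braf Smarcb1 KO, against 0, 0.796 and 0.432 CPM in Braf. Its groups overlapped, although it passed the test (log2 fold change 2.41 with SE 0.79, adjusted p = 0.0261). Hoxa2, Hoxa4 and Hoxa9 did not pass. Hoxa4 averaged 0.695 ± 0.246 CPM in Braf Smarcb1 KO and 0.394 ± 0.440 CPM in Braf, with groups that overlapped (adjusted p = 0.591).

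HoxB held the largest differences in CPM. Hoxb7, a trunk gene that is often raised in human cancers, had 54.0, 48.0 and 38.1 CPM in Braf Smarcb1 KO under vehicle, against 2.95, 1.92 and 2.52 CPM in Braf under vehicle. The groups did not overlap (log2 fold change 4.25 with SE 0.47, adjusted p = 4.50e-06). Hoxb6, which acts beside it in the trunk, had 27.05, 61.7 and 32.6 CPM in Braf Smarcb1 KO, against 1.58, 1.41 and 1.49 CPM in Braf. The Braf libraries lay close together and far below (log2 fold change 4.76 with SE 0.74, adjusted p = 0.000104). Hoxb5, which acts in the neck and foregut region, had 8.72, 8.04 and 15.1 CPM in Braf Smarcb1 KO, against 1.17, 1.01 and 1.10 CPM in Braf (log2 fold change 3.27 with SE 0.50, adjusted p = 7.61e-05). These 3 genes stand side by side in the cluster. Hoxb4, known for its action in blood stem cells, averaged 3.402 ± 0.321 CPM in Braf Smarcb1 KO and 0.995 ± 0.717 CPM in Braf (log2 fold change 1.76 with SE 0.54, adjusted p = 0.0186). Hoxb8 averaged 0.287 ± 0.0762 CPM in Braf Smarcb1 KO and 0.0121 ± 0.0209 CPM in Braf, a ratio of 20.6 with an interval of 3.39 to 846 (adjusted p = 0.00971). Hoxb2, a hindbrain gene, averaged 0.980 ± 0.742 CPM in Braf Smarcb1 KO and 0.179 ± 0.0863 CPM in Braf, with groups that overlapped (log2 fold change 2.42 with SE 0.85, adjusted p = 0.0368). Hoxb3, which stands between Hoxb2 and Hoxb4, and Hoxb9, next to Hoxb8, did not pass. Hoxb3 averaged 2.11 ± 0.518 CPM in Braf Smarcb1 KO and 2.15 ± 0.803 CPM in Braf (adjusted p = 0.978). Hoxb9, a thoracic gene, averaged 17.6 ± 10.02 CPM in Braf Smarcb1 KO and 9.69 ± 3.10 CPM in Braf (adjusted p = 0.225).

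In HoxC the members that rose averaged under 1 CPM in Braf. Hoxc8, which patterns the thoracic skeleton and motor neurons of the forelimb level, had 5.58, 21.1 and 7.003 CPM in Braf Smarcb1 KO under vehicle and 0 counts in the 3 Braf vehicle libraries. Against a floor of 3 counts over the group, Hoxc8 was at least 271-fold higher (adjusted p = 0.000103). Hoxc4, the first gene of the cluster, had 6.52, 7.19 and 6.93 CPM in Braf Smarcb1 KO, against 0.408, 0.796 and 0.511 CPM in Braf, with no overlap (log2 fold change 3.57 with SE 0.69, adjusted p = 0.000714). Hoxc6, which stands between them, averaged 1.32 ± 0.409 CPM in Braf Smarcb1 KO and 0.0131 ± 0.0227 CPM in Braf, a ratio of 96.9 with an interval of 17.1 to 3856 (adjusted p = 0.00129). Hoxc5 averaged 3.11 ± 0.851 CPM in Braf Smarcb1 KO and 0.767 ± 0.219 CPM in Braf (log2 fold change 2.02 with SE 0.60, adjusted p = 0.0143). Hoxc9 and Hoxc10, genes of thoracic and lumbar level, had 0 counts in Braf. They averaged 0.833 ± 0.563 CPM and 1.06 ± 1.19 CPM in Braf Smarcb1 KO, at least 19.8-fold and 25.4-fold higher than that floor (adjusted p = 0.00204 and 0.0154). Floors and intervals cover counting error only. Hoxc12 and Hoxc13 did not pass, nor did Hoxd8 and Hoxd9. Hoxd8 averaged 0.253 ± 0.177 CPM in Braf Smarcb1 KO and 0.619 ± 0.634 CPM in Braf (adjusted p = 0.456).

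**Figure D4:**
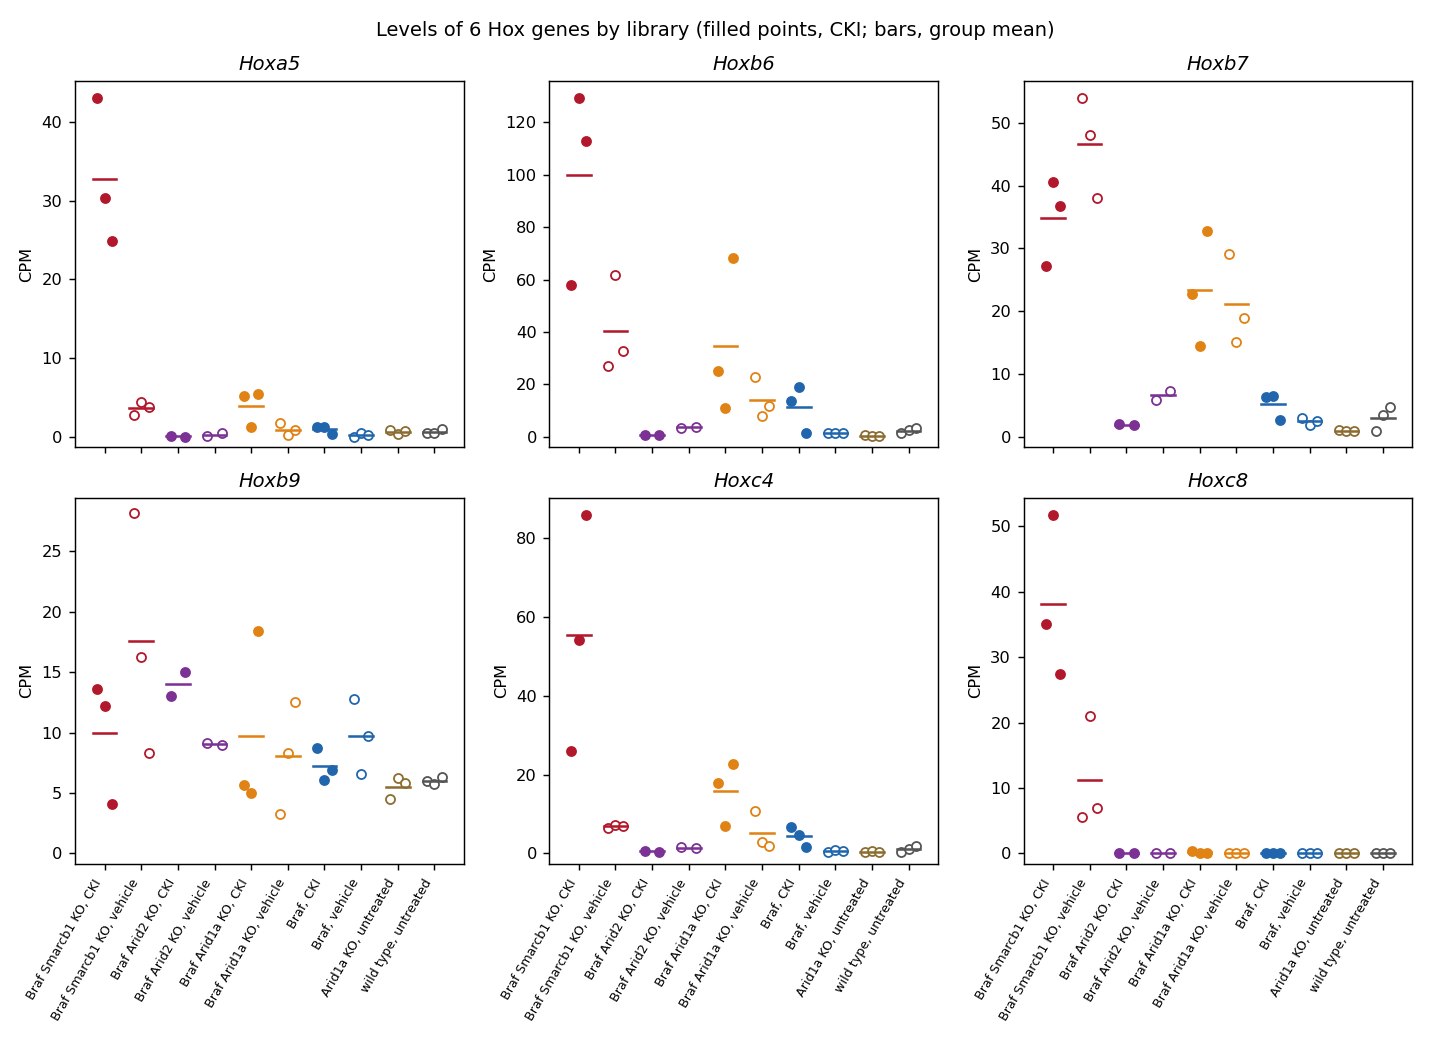
CPM of Hoxa5, Hoxb6, Hoxb7, Hoxb9, Hoxc4 and Hoxc8 in each library (points, filled under CKI, with bars at the group means), by group. The 3 Braf Smarcb1 KO vehicle libraries lie above the 3 Braf vehicle libraries for all of these except Hoxb9, which stands at 3.24 to 28.2 CPM over the 28 libraries.

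The promoters of 3 members that rose are shown, 1 from each of the clusters that moved, because CG dinucleotides (in capitals) are the feature by which Polycomb targets such as Hox promoters are usually described. Each runs from 250 bases before to 50 after the gene's start, 5′ to 3′ along the gene, from RefSeq on GRCm38.p6, a build other than the mm9 of the counts.
Hoxa5 (chr6:52204538-52204837, minus strand): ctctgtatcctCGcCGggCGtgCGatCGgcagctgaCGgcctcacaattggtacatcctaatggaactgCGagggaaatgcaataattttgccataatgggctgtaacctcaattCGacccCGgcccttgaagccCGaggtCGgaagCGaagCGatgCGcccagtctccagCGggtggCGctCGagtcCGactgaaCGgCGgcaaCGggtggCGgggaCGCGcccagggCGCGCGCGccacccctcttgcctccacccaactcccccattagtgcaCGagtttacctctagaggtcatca
Hoxb8 (chr11:96281655-96281954, plus strand): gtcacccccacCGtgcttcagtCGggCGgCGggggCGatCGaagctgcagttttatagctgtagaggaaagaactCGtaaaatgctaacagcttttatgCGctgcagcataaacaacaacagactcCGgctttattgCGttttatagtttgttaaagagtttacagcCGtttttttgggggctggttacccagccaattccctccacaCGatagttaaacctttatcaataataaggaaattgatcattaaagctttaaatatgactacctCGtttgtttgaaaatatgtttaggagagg
Hoxc4 (chr15:103034145-103034444, plus strand): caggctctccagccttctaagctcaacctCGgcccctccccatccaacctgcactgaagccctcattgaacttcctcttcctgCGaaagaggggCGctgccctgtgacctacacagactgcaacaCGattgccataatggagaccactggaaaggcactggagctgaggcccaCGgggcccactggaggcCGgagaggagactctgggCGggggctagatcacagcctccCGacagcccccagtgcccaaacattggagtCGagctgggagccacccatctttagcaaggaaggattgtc
These hold 29, 13 and 9 CG dinucleotides for Hoxa5, Hoxb8 and Hoxc4. RefSeq promoters were matched for 22 members, 24 promoters in all, with a median of 14.5 CG dinucleotides (4 to 45), beside a median of 7 over all 32841 promoters of the same length, and 83.3% of the 24 lay above that median. The letters TGATNNAT, the site of Pbx and Hox proteins bound together, were searched on both strands, and 16.7% of the 24 held them, 4 in number, Hoxb8 with 1 match among them, beside 8.85% of all promoters. A match describes letters in this window.

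Of the 13 calls among the 20 members, 6 held in each of 13 alternatives, which included leaving out each library: Hoxa5, Hoxb5, Hoxb6, Hoxb7, Hoxc4 and Hoxc6. Hoxa3, Hoxa10, Hoxb2, Hoxb4 and Hoxc5 lost the call without Braf vehicle replicate 5. Without Braf vehicle replicate 2 Hoxa3, Hoxa10, Hoxb2 and Hoxb4 lost it, without Braf vehicle replicate 4 Hoxa10, Hoxb2 and Hoxc5, and without Braf Smarcb1 KO replicate 1, 2 or 3 Hoxa3, Hoxa10 with Hoxb2, and Hoxb2. Marker levels of other cells moved between these groups. The 7 leukocyte markers summed to 117 to 352 CPM in Braf Smarcb1 KO under vehicle, against 795 to 1383 CPM in Braf, with 4 of 7 lower. The 10 fibroblast markers summed to 1293 to 2785 CPM in Braf Smarcb1 KO, against 903 to 21962 CPM in Braf, with 5 of 10 lower, and no marker of these lists was at 0 in any library. Endothelial markers had 1 of 10 higher and 6 lower, smooth muscle markers 4 of 6 lower, and thyroid markers 1 of 7 higher and 5 lower. With the leukocyte level in the fit 8 of the 28 tested members were called, with the fibroblast level 12, and with only the libraries of the groups compared 10. The share of all genes called under an alternative is not given here or below. Such counts can therefore not be told from a shift over all genes. With the fibroblast level Hoxa7, Hoxa10, Hoxb2, Hoxb8, Hoxc5 and Hoxc10 lost the call. The part of the endothelial, smooth muscle and thyroid levels was not tested.

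Under CKI, 12 of the 20 members that pass without the Braf Smarcb1 KO libraries rose in Braf Smarcb1 KO relative to Braf and 0 fell, beside 7.87% of all genes that rose and 17.1% called in either direction. Their median log2 fold change was 2.55, beside 0.03 over all genes. With Hoxa10, Hoxc8, Hoxc9 and Hoxc10 the calls were 16 of 28, 6 in HoxA, 4 in HoxB and 6 in HoxC. Hoxa2 was called here and not under vehicle, and Hoxb2 and Hoxb8 were called under vehicle and not here, but the difference between treatments passed the test for none of these 3 (adjusted p = 0.339, 0.817 and 0.707). Hoxa2, which patterns the second pharyngeal arch, had 8.69, 8.91 and 11.8 CPM in Braf Smarcb1 KO under CKI, against 0.552, 0.548 and 0.344 CPM in Braf under CKI. All 3 Braf Smarcb1 KO libraries were far above (log2 fold change 4.34 with SE 0.77, adjusted p = 0.000527). Hoxa5 had 43.0, 30.3 and 24.9 CPM in Braf Smarcb1 KO, against 1.30, 1.22 and 0.344 CPM in Braf (log2 fold change 5.10 with SE 0.87, adjusted p = 0.000399). Hoxb6 had 58.1, 129 and 113 CPM in Braf Smarcb1 KO, against 13.5, 18.8 and 1.62 CPM in Braf (log2 fold change 3.15 with SE 0.68, adjusted p = 0.00271). Braf replicate 5, with the lowest of these Hoxb6 values, was also the lowest of its group for Hoxa5 and Hoxc4. Hoxc4 had 25.9, 54.1 and 85.9 CPM in Braf Smarcb1 KO, against 6.62, 4.72 and 1.69 CPM in Braf (log2 fold change 3.67 with SE 0.66, adjusted p = 0.000656). Hoxc8 had 35.1, 51.8 and 27.5 CPM in Braf Smarcb1 KO, against 0.130, 0 and 0 CPM in Braf, where its only 4 reads came from 1 library (adjusted p = 8.87e-05).

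The other called members of HoxA were Hoxa3, Hoxa6, Hoxa7 and Hoxa10. Hoxa6 averaged 5.82 ± 1.52 CPM in Braf Smarcb1 KO and 0.223 ± 0.117 CPM in Braf (log2 fold change 4.70 with SE 0.84, adjusted p = 0.000724). Hoxa7 averaged 8.45 ± 4.16 CPM in Braf Smarcb1 KO and 0.349 ± 0.161 CPM in Braf (log2 fold change 4.58 with SE 0.80, adjusted p = 0.000466). The same held further along HoxB and HoxC. Hoxb5 averaged 37.5 ± 12.5 CPM in Braf Smarcb1 KO and 2.49 ± 0.606 CPM in Braf (log2 fold change 3.91 with SE 0.50, adjusted p = 1.98e-05). Hoxb7 averaged 34.8 ± 6.85 CPM in Braf Smarcb1 KO and 5.15 ± 2.13 CPM in Braf (log2 fold change 2.76 with SE 0.44, adjusted p = 0.000204). Hoxc6 and Hoxc9, middle genes of their cluster, were nearly empty in Braf. Hoxc6 averaged 7.77 ± 1.11 CPM in Braf Smarcb1 KO and 0.227 ± 0.133 CPM in Braf (log2 fold change 5.09 with SE 0.99, adjusted p = 0.00151). Hoxc9 averaged 4.003 ± 1.61 CPM in Braf Smarcb1 KO and 0.0396 ± 0.0424 CPM in Braf, a ratio of 111 with an interval of 37.8 to 542 (adjusted p = 0.00135). Hoxb9, at 9.98 ± 5.15 CPM in Braf Smarcb1 KO and 7.23 ± 1.36 CPM in Braf, did not pass (adjusted p = 0.617). Of the 12 calls among the 20 members, 10 held in each of 13 alternatives. Hoxa3 lost its call without any 1 of the 6 libraries, Hoxa10 without Braf CKI replicate 1 or 5, and Hoxc5 without Braf Smarcb1 KO replicate 4 or Braf replicate 5. Leukocyte markers summed to 114 to 172 CPM in Braf Smarcb1 KO under CKI, against 185 to 321 CPM in Braf, with 2 of 7 lower, and fibroblast markers to 1506 to 13808 against 1463 to 7244 CPM, with 1 of 10 higher. With the leukocyte level in the fit 16 of the 28 tested members were called, and with the fibroblast level 17. Thyroid markers, 6 of 7 lower, summed to 1621 to 2344 CPM in Braf Smarcb1 KO under CKI, against 8889 to 22017 CPM in Braf. Endothelial markers, 8 of 10 lower, summed to 92.3 to 101 against 181 to 735 CPM, and smooth muscle markers, 3 of 6 lower, to 60.5 to 225 against 182 to 525 CPM. The part of these 3 lists in the result was not tested.

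With Arid1a lost, under vehicle, 8 tested members rose and 0 fell relative to Braf, beside 4.25% of all genes that rose and 9.56% called in either direction. They were Hoxa6, Hoxa7, Hoxb5 to Hoxb8, Hoxc4 and Hoxc5, from paralog groups 4 to 8. These comparisons share the Braf libraries with those of Smarcb1. The median log2 fold change of the 20 members was 1.43, beside 0.00 over all genes. Hoxb7 had 29.2, 15.1 and 18.9 CPM in Braf Arid1a KO under vehicle, against 2.95, 1.92 and 2.52 CPM in Braf under vehicle. The groups did not overlap, and this was the only call that held in each of 13 alternatives (log2 fold change 3.10 with SE 0.45, adjusted p = 0.000270). Hoxb6 had 22.9, 7.90 and 11.9 CPM in Braf Arid1a KO, against 1.58, 1.41 and 1.49 CPM in Braf (log2 fold change 3.25 with SE 0.70, adjusted p = 0.00562). Hoxc4 had 10.8, 2.97 and 2.00 CPM in Braf Arid1a KO, against 0.408, 0.796 and 0.511 CPM in Braf (log2 fold change 3.18 with SE 0.68, adjusted p = 0.00536). For Hoxb6, Hoxb7 and Hoxc4, Braf Arid1a KO replicate 1 had the highest value of its group. Hoxb5 averaged 4.08 ± 1.20 CPM in Braf Arid1a KO and 1.10 ± 0.0795 CPM in Braf (log2 fold change 1.90 with SE 0.48, adjusted p = 0.0147). Hoxa6 averaged 0.841 ± 0.126 CPM in Braf Arid1a KO and 0.0252 ± 0.0218 CPM in Braf, a ratio of 30.2 with an interval of 8.07 to 254 (adjusted p = 0.00528). Hoxc8 had 0.0317, 0 and 0 CPM in Braf Arid1a KO and 0 counts in Braf, and did not pass (adjusted p = 0.660).

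These counts rested on few libraries. Without Braf Arid1a KO replicate 1, 3 members were called, Hoxa6, Hoxb6 and Hoxb7, without its replicate 3 or without Braf replicate 2 or 5, 5 members, and without Braf replicate 4, 4 members. With the fibroblast level as a covariate 1 was called, Hoxb7, and with only the libraries of the groups compared 3 were. Fibroblast markers summed to 327 to 808 CPM in Braf Arid1a KO under vehicle, against 903 to 21962 CPM in Braf, with 9 of 10 lower. Endothelial markers had 5 of 10 lower, smooth muscle markers 4 of 6 lower and thyroid markers 2 of 7 higher, and their part was not tested. Under CKI, 3 members rose with Arid1a loss and 0 fell, beside 1.03% of all genes that rose and 2.30% called in either direction. Hoxb7 had 22.8, 14.5 and 32.7 CPM in Braf Arid1a KO under CKI, against 6.26, 6.49 and 2.69 CPM in Braf under CKI (log2 fold change 2.18 with SE 0.43, adjusted p = 0.00794). Hoxa7 averaged 2.75 ± 1.82 CPM in Braf Arid1a KO and 0.349 ± 0.161 CPM in Braf (log2 fold change 2.96 with SE 0.75, adjusted p = 0.0381). Hoxb8 averaged 1.33 ± 0.840 CPM in Braf Arid1a KO and 0.0835 ± 0.0143 CPM in Braf (log2 fold change 3.92 with SE 0.90, adjusted p = 0.0223). Hoxb6, at 25.1, 11.1 and 68.1 CPM in Braf Arid1a KO and 13.5, 18.8 and 1.62 CPM in Braf, did not pass (adjusted p = 0.211). Hoxb7 alone was called without Braf Arid1a KO CKI replicate 2 or without Braf CKI replicate 1 or 4, and 0 members without Braf CKI replicate 5. With only the libraries of the groups compared 0 were called, with the fibroblast level as a covariate 1, and by DESeq2 8. The share of all genes that DESeq2 called is not given here or below. Its counts can therefore not be read against the shares by edgeR. Fibroblast markers summed to 374 to 3118 CPM in Braf Arid1a KO under CKI, against 1463 to 7244 CPM in Braf, with 0 of 10 called, while endothelial markers had 1 of 10 lower and smooth muscle markers 2 of 6. The part of the last 2 lists in the result was not tested.

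With Arid2 lost, 0 members were called under vehicle by edgeR, beside 3.61% of all genes, 2 had an unadjusted p under 0.05, and DESeq2 called 1. The median log2 fold change of the 20 members was 0.22, beside -0.04 over all genes. Hoxb7 had 5.90 and 7.32 CPM in Braf Arid2 KO under vehicle, against 2.95, 1.92 and 2.52 CPM in Braf under vehicle (adjusted p = 0.0798). Hoxb6 had 3.35 and 3.85 CPM in Braf Arid2 KO, against 1.58, 1.41 and 1.49 CPM in Braf (adjusted p = 0.310). Both libraries of Braf Arid2 KO were above all Braf libraries for these genes, and neither gene passed. Under CKI, 3 members fell with Arid2 loss and 0 rose, beside 0.915% of all genes that fell and 1.27% called in either direction. Hoxc5, a neck gene, had 0.0394 and 0 CPM in Braf Arid2 KO under CKI, the first of these from a single read, against 3.70, 2.78 and 1.10 CPM in Braf under CKI. The ratio was 135 with an interval of 24.0 to 5372, lower in Braf Arid2 KO (adjusted p = 0.00223). Hoxb6 had 0.787 and 0.643 CPM in Braf Arid2 KO, against 13.5, 18.8 and 1.62 CPM in Braf. The groups did not overlap, and Braf replicate 5 was nearest to Braf Arid2 KO (log2 fold change -3.98 with SE 0.87, adjusted p = 0.0267). Hoxb5 averaged 0.493 ± 0.364 CPM in Braf Arid2 KO (SD, n = 2) and 2.49 ± 0.606 CPM in Braf (log2 fold change -2.31 with SE 0.58, adjusted p = 0.0487). Hoxb7, at 1.97 and 1.93 CPM in Braf Arid2 KO and 6.26, 6.49 and 2.69 CPM in Braf, did not pass (adjusted p = 0.121). DESeq2 called 9 members here. Without Braf Arid2 KO replicate 4, 0 members were called by edgeR, and without its replicate 3 or without Braf replicate 1 or 4 Hoxc5 alone was. Leukocyte markers summed to 188 to 193 CPM in Braf Arid2 KO under CKI, against 185 to 321 CPM in Braf, and fibroblast markers to 562 to 749 against 1463 to 7244 CPM, with 0 called in either list. With the leukocyte level in the fit 4 members were called, and with the fibroblast level 3.

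Few members were called for the MEK inhibitor, and in Braf, Braf Arid1a KO and Braf Arid2 KO their share was near or below that of all genes. In Braf Smarcb1 KO 5 of 28 tested members rose (17.9%), beside 1.80% of all genes that rose and 3.85% called. In Braf Arid2 KO 1 fell (3.57%), beside 1.96% of all genes that fell and 3.37% called. In Braf Arid1a KO 1 rose (3.57%), beside 2.51% and 4.51%, and in Braf 2 rose (7.14%), beside 7.96% of all genes that rose and 13.0% called. The median log2 fold change of the 20 members that pass without the Braf Smarcb1 KO libraries was 1.77 in Braf Smarcb1 KO, -0.84 in Braf Arid2 KO (-0.60 with genes at 0 counts in a group set to their bound), 1.497 in Braf Arid1a KO and 1.45 in Braf, beside 0.03, -0.03, 0.03 and -0.01 over all genes.

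**Figure D5:**
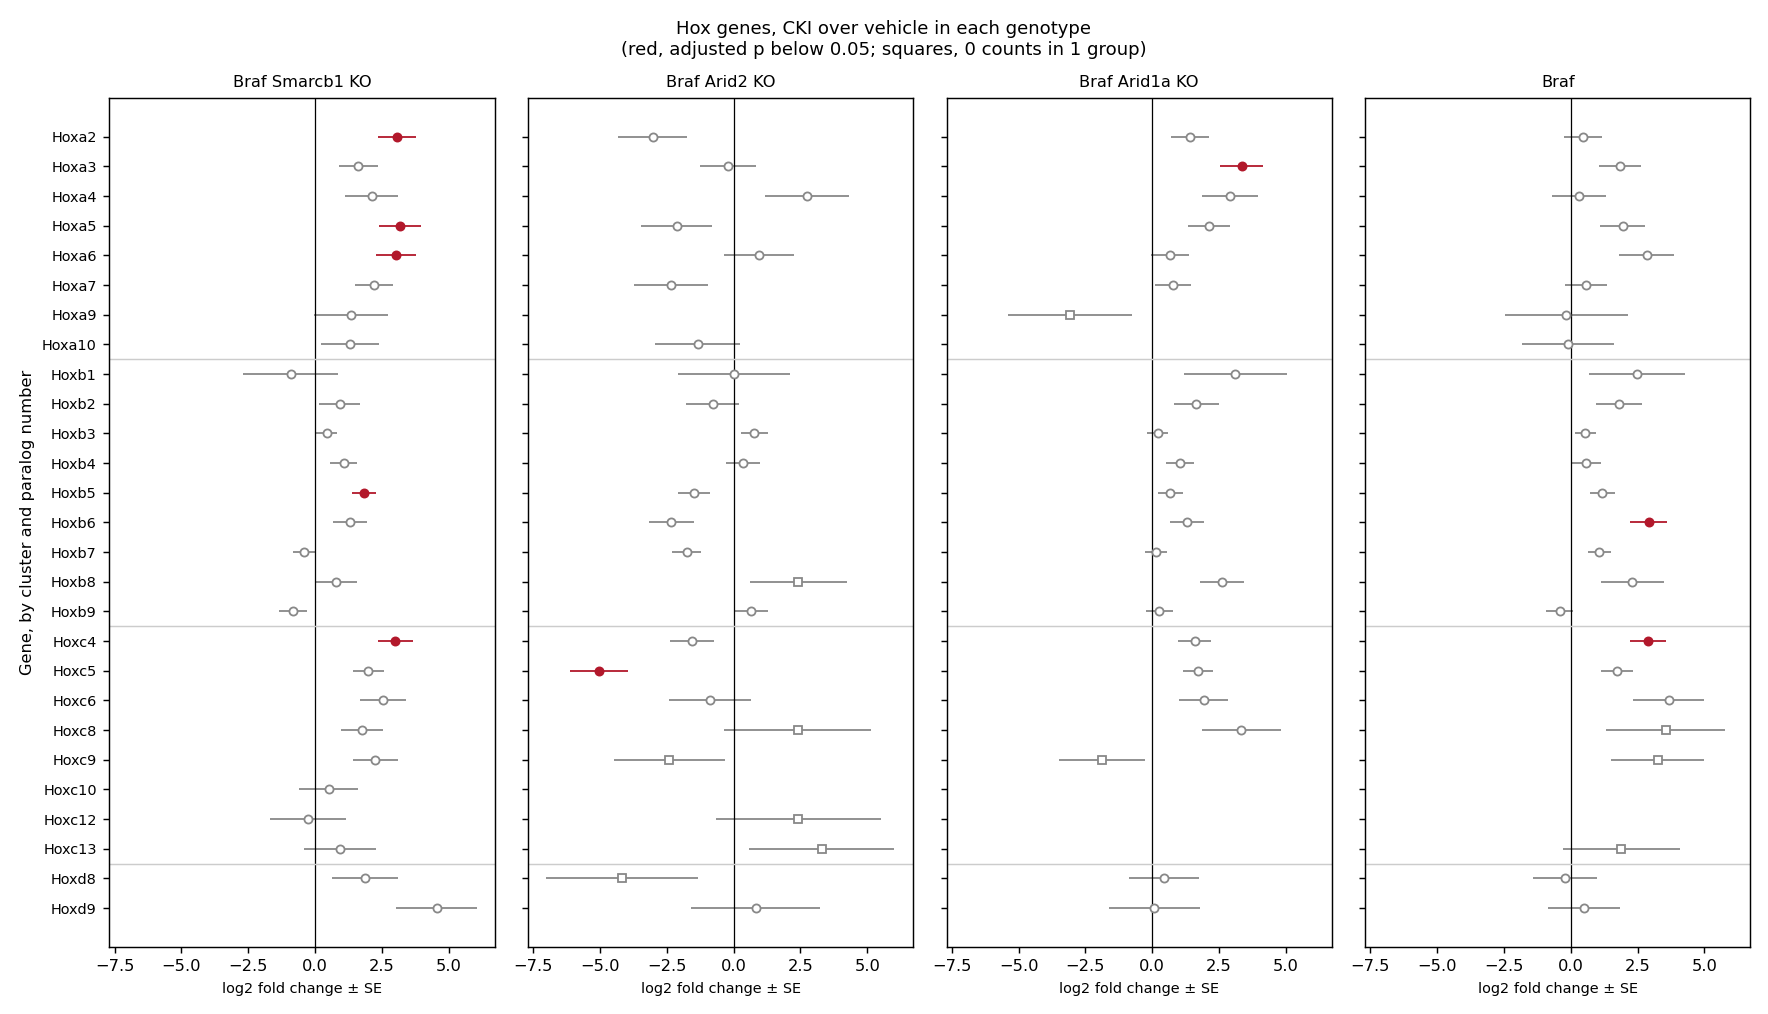
Fitted log2 fold change with its SE (bars) of tested Hox members for CKI over vehicle in Braf Smarcb1 KO, Braf Arid2 KO, Braf Arid1a KO and Braf. Squares mark members with 0 counts in 1 of the groups, and members at 0 in both are not drawn. Red marks an adjusted p under 0.05: Hoxa2, Hoxa5, Hoxa6, Hoxb5 and Hoxc4 in Braf Smarcb1 KO, Hoxc5 in Braf Arid2 KO, Hoxa3 in Braf Arid1a KO, and Hoxb6 and Hoxc4 in Braf.

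Hoxc4 rose with the inhibitor in 2 genotypes. It had 25.9, 54.1 and 85.9 CPM in Braf Smarcb1 KO under CKI, against 6.52, 7.19 and 6.93 CPM under vehicle (log2 fold change 3.01 with SE 0.64, adjusted p = 0.0105). In Braf it had 6.62, 4.72 and 1.69 CPM under CKI, against 0.408, 0.796 and 0.511 CPM under vehicle (log2 fold change 2.90 with SE 0.68, adjusted p = 0.0106). No CKI library overlapped a vehicle library in either genotype. Hoxb6 had 13.5, 18.8 and 1.62 CPM in Braf under CKI, against 1.58, 1.41 and 1.49 CPM under vehicle (log2 fold change 2.92 with SE 0.69, adjusted p = 0.0113). Replicate 5 lay next to the highest vehicle library, and the other CKI libraries far above. In Braf Smarcb1 KO, Hoxa5 had 43.0, 30.3 and 24.9 CPM under CKI, against 2.79, 4.38 and 3.78 CPM under vehicle (log2 fold change 3.16 with SE 0.79, adjusted p = 0.0258). Hoxa2 had 8.69, 8.91 and 11.8 CPM under CKI, against 0.652, 1.37 and 1.503 CPM under vehicle (log2 fold change 3.06 with SE 0.71, adjusted p = 0.0186). Neither gene's groups overlapped. Hoxb5 had 30.9, 29.7 and 51.9 CPM under CKI in Braf Smarcb1 KO, against 8.72, 8.04 and 15.1 CPM under vehicle (log2 fold change 1.82 with SE 0.46, adjusted p = 0.0261). Hoxa6 averaged 5.82 ± 1.52 CPM under CKI and 0.707 ± 0.423 CPM under vehicle in Braf Smarcb1 KO (log2 fold change 3.03 with SE 0.76, adjusted p = 0.0282). Hoxb7, the leading gene per kilobase under vehicle, had 27.2, 40.5 and 36.8 CPM under CKI and 54.0, 48.0 and 38.1 CPM under vehicle there, and did not pass (adjusted p = 0.641). Hoxa3, a gene of the thyroid's own region, had 7.10, 5.90 and 7.45 CPM in Braf Arid1a KO under CKI, against 0.920, 0.244 and 0.819 CPM under vehicle (log2 fold change 3.35 with SE 0.80, adjusted p = 0.0206). Its groups were wide apart. Hoxa3 in Braf Smarcb1 KO had 8.69, 5.54 and 6.62 CPM under CKI and 3.77, 2.22 and 0.770 CPM under vehicle, and in Braf 2.27, 1.69 and 0.585 CPM under CKI and 0, 0.796 and 0.432 CPM under vehicle, and did not pass in either (adjusted p = 0.253 and 0.123). Hoxc5 had 0.0394 and 0 CPM in Braf Arid2 KO under CKI, against 0.875 and 0.655 CPM under vehicle. The ratio was 41.0 with an interval of 6.96 to 1658, lower under CKI (adjusted p = 0.0133).

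Single libraries moved these counts. In Braf Smarcb1 KO, 2, 3 and 4 members were called without CKI replicate 1, 2 and 4, and 0, 1 and 3 without vehicle replicate 1, 2 and 3. Hoxc4 kept its call without each library but vehicle replicate 1. With only its own libraries 0 were called, and DESeq2 called 8. In Braf, Hoxb6 alone was called without CKI replicate 1 or vehicle replicate 2, Hoxc4 alone without CKI replicate 4, 4 members without CKI replicate 5, 5 by DESeq2, and 0 with the leukocyte level in the fit. Hoxa3 lost its call in Braf Arid1a KO without any 1 of the vehicle libraries, where 2 other members were called without replicate 1. Also 2 members were called without CKI replicate 4, 6 by DESeq2, and 0 with the leukocyte covariate. Hoxc5 lost its call in Braf Arid2 KO without CKI replicate 3 or 4 or vehicle replicate 2. The leukocyte sums were 185 to 321 CPM under CKI and 795 to 1383 CPM under vehicle in Braf, 174 to 419 and 459 to 982 CPM in Braf Arid1a KO, 188 to 193 and 532 to 564 CPM in Braf Arid2 KO, and 114 to 172 and 117 to 352 CPM in Braf Smarcb1 KO. Thyroid markers were higher with CKI in each genotype, 5 of 7 in Braf Smarcb1 KO, 4 of 7 in Braf Arid2 KO, 6 of 7 in Braf Arid1a KO and 7 of 7 in Braf. They summed to 1621 to 2344 CPM under CKI and 158 to 222 CPM under vehicle in Braf Smarcb1 KO, 38574 to 64662 and 780.3 to 993 CPM in Braf Arid2 KO, 23111 to 35305 and 602 to 1669.5 CPM in Braf Arid1a KO, and 8889 to 22017 and 408 to 1162 CPM in Braf. The part of the thyroid level in the Hox levels was not tested.

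The difference between drug responses, CKI over vehicle in a KO less CKI over vehicle in Braf, was tested in the same fit. For Arid2, 5 tested members had a lower response than in Braf and 0 a higher one, beside 7.19% of all genes lower and 8.66% called in either direction. For Smarcb1 and Arid1a, 0 members were called by edgeR, beside 0.305% and 0% of all genes, with 2 and 0 members at an unadjusted p under 0.05 and 0 called by DESeq2 for either. The members called for Arid2 were the neighbours Hoxb5, Hoxb6 and Hoxb7 and the neighbours Hoxc4 and Hoxc5. Hoxb6 had 0.787 and 0.643 CPM under CKI and 3.35 and 3.85 CPM under vehicle in Braf Arid2 KO, against 13.5, 18.8 and 1.62 CPM under CKI and 1.58, 1.41 and 1.49 CPM under vehicle in Braf, a difference of -5.24 on the log2 scale (SE 1.11, adjusted p = 0.0141). Both CKI libraries were below both vehicle libraries with Arid2 lost, and all CKI libraries above all vehicle libraries in Braf. Hoxb7 had 1.97 and 1.93 CPM under CKI and 5.90 and 7.32 CPM under vehicle in Braf Arid2 KO, against 6.26, 6.49 and 2.69 CPM under CKI and 2.95, 1.92 and 2.52 CPM under vehicle in Braf, a difference of -2.82 (SE 0.68, adjusted p = 0.0174). Hoxc4 had 0.591 and 0.429 CPM under CKI and 1.60 and 1.39 CPM under vehicle in Braf Arid2 KO, against 6.62, 4.72 and 1.69 CPM under CKI and 0.408, 0.796 and 0.511 CPM under vehicle in Braf, a difference of -4.45 (SE 1.07, adjusted p = 0.0170). The differences of Hoxb5 and Hoxc5 were -2.67 (SE 0.77, adjusted p = 0.0341) and -6.77 (SE 1.23, adjusted p = 0.0123), the last a fitted value with a single read in one of its groups. With Arid2 loss resting on 2 libraries a treatment, 0 were called without either CKI library and 3 without vehicle replicate 2.

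Braf under vehicle and Arid1a KO were each set against untreated WT. In Braf under vehicle 1 tested member fell and 0 rose, beside 10.1% of all genes that fell and 20.0% called, a share below that of all genes. Hoxb5 had 1.17, 1.01 and 1.10 CPM in Braf, against 2.55, 3.53 and 5.76 CPM in WT, with no overlap (log2 fold change -1.85 with SE 0.48, adjusted p = 0.00846). Its call was lost without WT replicate 3, and 3 members were called without Braf replicate 4. With the fibroblast level as a covariate 4 were called, and fibroblast markers, 6 of 10 higher, summed to 903 to 21962 CPM in Braf, against 768 to 1484 CPM in WT. Thyroid markers, 6 of 7 lower, summed to 408 to 1162 CPM in Braf, against 60620.2 to 158279 CPM in WT, and endothelial markers, 9 of 10 lower, to 33.3 to 701 against 2090.0 to 3149.8 CPM. All 4 parathyroid markers were lower in Braf, and of the 4 C cell markers 3 were lower and 1 higher. The part of the thyroid, endothelial, parathyroid and C cell lists in the Hoxb5 level was not tested. Leukocyte markers, 2 of 7 higher, summed to 795 to 1383 CPM in Braf, against 391 to 615 CPM in WT. With the leukocyte level as a covariate Hoxb5 kept its call. Braf mice had vehicle and WT mice no treatment, so the mutation and the vehicle cannot be told apart. In Arid1a KO without the Braf mutation 4 tested members fell and 0 rose, beside 11.8% of all genes that fell and 18.6% called, so the members' share (14.3%) was near that of all genes. Hoxb3, Hoxb5, Hoxb6 and Hoxb7 are all of HoxB. Hoxb6 had 0.562, 0.377 and 0.251 CPM in Arid1a KO, against 1.26, 2.50 and 3.30 CPM in WT (log2 fold change -2.55 with SE 0.74, adjusted p = 0.0188). Hoxb3, which acts with Hoxa3 in the pharyngeal region, had 0.262, 0.172 and 0.293 CPM in Arid1a KO, against 0.523, 1.43 and 1.25 CPM in WT (log2 fold change -2.13 with SE 0.45, adjusted p = 0.00381). Hoxb5 averaged 1.30 ± 0.632 CPM in Arid1a KO and 3.95 ± 1.65 CPM in WT (log2 fold change -1.60 with SE 0.47, adjusted p = 0.0202). Hoxb7 averaged 0.965 ± 0.0724 CPM in Arid1a KO and 3.04 ± 1.91 CPM in WT, with groups that overlapped (log2 fold change -1.65 with SE 0.45, adjusted p = 0.0130). Hoxb3 alone was called without Arid1a KO replicate 1 or 3 or WT replicate 2 or 3. With the leukocyte or the fibroblast level as a covariate, 0 were called. Leukocyte markers, 7 of 7 higher, summed to 2250.2 to 3934 CPM in Arid1a KO, against 391 to 615 CPM in WT. Fibroblast markers, 6 of 10 higher, summed to 10168 to 14054 CPM in Arid1a KO, against 768 to 1484 CPM in WT. Parathyroid markers had 4 of 4 lower, thyroid markers 1 of 7 and endothelial markers 1 of 10, and their part was not tested.

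In all, 19 of the 28 tested members were called in at least 1 of the 15 comparisons and 9 in none, among them Hoxa4, Hoxa9, Hoxb1, Hoxb9, Hoxc12, Hoxc13, Hoxd8 and Hoxd9. Of these, Hoxb9 alone reached 1 CPM in every library, with 3.24 to 28.2 CPM over the 28. It had 28.2, 16.2 and 8.29 CPM in Braf Smarcb1 KO under vehicle and 12.8, 6.58 and 9.71 CPM in Braf under vehicle. Its level overlapped between these groups, while Hoxb5 to Hoxb7, its near neighbours in the cluster, did not. Hoxa4 averaged 3.03 ± 1.48 CPM in Braf Smarcb1 KO under CKI and 0.492 ± 0.289 CPM in Braf under CKI (adjusted p = 0.0814). Hoxb1, a hindbrain gene, was under 1 CPM in all 28 libraries, with its highest value, 0.404 CPM, in WT replicate 2. In Braf Smarcb1 KO it had 0 to 0.0795 CPM under CKI and 0 to 0.163 CPM under vehicle. By paralog groups, members 1 to 3 summed to 22.1 to 25.6 CPM in Braf Smarcb1 KO under CKI and 6.70 to 7.75 CPM under vehicle, against 5.37 to 6.91 and 3.26 to 3.54 CPM in Braf. Members 4 to 8 summed to 263 to 391 and 113 to 161 CPM in Braf Smarcb1 KO, against 12.9 to 40.5 and 7.44 to 10.5 CPM in Braf. Members 9 to 13 summed to 14.7 to 25.1 and 10.1 to 29.6 CPM in Braf Smarcb1 KO, against 6.36 to 9.28 and 7.13 to 12.8 CPM in Braf, where the vehicle ranges overlapped. Hoxb9 made up 27.7% to 57.2% of this sum under CKI and 68.7% to 95.3% under vehicle in Braf Smarcb1 KO, against 94.1% to 95.4% and 92.4% to 100% in Braf.

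Genes that work with Hox proteins or at Hox loci were counted from lists of their own, to be read against the 28.6% of all genes called under vehicle and 17.1% under CKI. Of the Pbx, Meis and related cofactors, which bind DNA beside Hox proteins, 2 of 9 rose and 1 fell in Braf Smarcb1 KO under vehicle, and 4 of 9 rose and 0 fell under CKI. Pbx3 averaged 38.0 ± 16.8 CPM in Braf Smarcb1 KO and 6.19 ± 0.255 CPM in Braf under vehicle (adjusted p = 3.63e-05). Under CKI it averaged 69.0 ± 33.8 CPM in Braf Smarcb1 KO and 9.56 ± 2.18 CPM in Braf (adjusted p = 2.06e-05). Of Polycomb genes, 5 of 27 rose and 2 fell under vehicle, and 3 of 27 rose and 0 fell under CKI. Pcgf5, a subunit of Polycomb complex PRC1, averaged 49.3 ± 12.6 CPM in Braf Smarcb1 KO and 9.31 ± 3.50 CPM in Braf under vehicle (adjusted p = 0.000131). The H3K27 methyltransferase Ezh2 averaged 19.3 ± 5.64 CPM in Braf Smarcb1 KO and 7.98 ± 1.46 CPM in Braf (adjusted p = 0.00440), and its relative Ezh1 50.2 ± 22.9 and 117 ± 30.2 CPM (adjusted p = 0.00777). Of Trithorax-group genes, 3 of 13 rose and 0 fell under vehicle, and 1 of 13 rose and 0 fell under CKI, Psip1 in both. The calls in the Polycomb and Trithorax lists, in either direction, were a smaller share than that of all genes under both treatments.

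Retinoic acid is known to switch on Hox clusters in the embryo, and of genes of its transport, synthesis and receptors 3 of 16 rose and 4 fell in Braf Smarcb1 KO under vehicle, and 3 of 16 rose and 3 fell under CKI. Crabp1, a binding protein for retinoic acid, averaged 3231 ± 2081 CPM in Braf Smarcb1 KO and 0.966 ± 0.618 CPM in Braf under vehicle (adjusted p = 5.00e-08). The receptor gene Rarb rose under both treatments, and Aldh1a1 and Stra6 fell under both. Of the Cdx and other ParaHox genes, 2 of 6 could be tested and 1 was called higher, Cdx1, a regulator of Hox genes in the embryo. It had 0.421 ± 0.116 CPM in Braf Smarcb1 KO and 0 counts in Braf under vehicle. Outside the Braf Smarcb1 KO groups the 6 genes averaged at most 0.0432 per library on the log2(CPM + 1) scale. Cdx1 thus passed the filter only with the Braf Smarcb1 KO libraries, and its call is a description that supports nothing. Of 10 non-coding RNAs of the clusters, 3 could be tested, and 1 rose with Smarcb1 lost under vehicle and 2 under CKI. The RNA listed as 0610040B09Rik, RefSeq's Hoxb5os, averaged 7.50 ± 2.80 CPM in Braf Smarcb1 KO and 0.632 ± 0.244 CPM in Braf under vehicle (adjusted p = 0.000508). With Arid1a lost it averaged 3.73 ± 1.91 CPM under vehicle, against that same Braf level (adjusted p = 0.0150). With Arid2 lost under CKI it averaged 0.193 ± 0.172 CPM, against 3.04 ± 1.44 CPM in Braf under CKI (adjusted p = 0.0249). Since strand was not stated, its reads and those of Hoxb5 and Hoxb6 cannot be told apart. The RNA listed as 2700086A05Rik, RefSeq's Hoxaas3, averaged 3.89 ± 0.752 CPM in Braf Smarcb1 KO and 0.463 ± 0.187 CPM in Braf under CKI (adjusted p = 0.00379). Hoxaas3 lies on the other strand over Hoxa3 to Hoxa7, and its reads and theirs cannot be told apart either. Of 9 tested genes that flank the clusters and are no Hox genes, 3 rose and 2 fell with Smarcb1 lost under vehicle, and 1 rose and 1 fell under CKI. None of these list counts was tested against the share over all genes.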

How the data were processed

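Read counts per gene of mouse thyroid RNA-seq libraries were analysed. The authors deposited raw counts of 33924 genes in 1 table, not normalized. The build was mm9, and STAR 2.4, HTSeq 0.6.1 and DESeq2 were used in roles not stated, per the submitters' processing notes. Per the labels the kit was TruSeq RNA, and strand is not stated. The labels describe 30 samples, and 28 were analysed here. Braf Arid2 KO vehicle replicate 1 and CKI replicate 2 were not analysed here. Sample titles gave each library's group and number.

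Genes were filtered with filterByExpr by group (minimum count 10), scaled by TMM, and fitted over the 28 libraries with a term per group (edgeR 4.0.16, glmQLFit and glmQLFTest, R 4.3.3). From this fit came 15 comparisons, with Benjamini-Hochberg adjustment over 19016 genes and a threshold of 0.05. Levels are CPM, mean ± SD over libraries. No library was a copy of another of its group, with a chi-square of 84.5 to 393 per degree of freedom over the pairs. A gene at 0 in a group was set against 3 counts over that group, and a ratio to 1 to 3 counts has a 95% interval for counting error. Alternatives were RLE size factors, no filter, a replicate block, leukocyte and fibroblast levels as covariates, only the groups compared, DESeq2 1.42.0 and leaving out each library. The fit was tested on simulated data. Every member called, and up to 4 called genes of each list by smallest p, could be named. Members, lists and tests were chosen with earlier results of these data known. Promoters came from RefSeq (GRCm38.p6), and gene lengths and overlaps from GENCODE M21. Some genes that these rules take are not reported here.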

Additional observations from a re-analysis of the deposited data

Results flagged for a closer look

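For 5 members the response to CKI with Arid2 lost was lower than the response in Braf, by edgeR's quasi-likelihood test of the difference itself. They were 17.9% of the 28 tested members, beside 7.19% of all genes lower and 8.66% called in either direction, so lower responses were not limited to Hox genes. Hoxb5 had a difference of -2.67 on the log2 scale (SE 0.77, adjusted p = 0.0341). Hoxb6 had a difference of -5.24 on the log2 scale (SE 1.11, adjusted p = 0.0141). Hoxb7 had a difference of -2.82 on the log2 scale (SE 0.68, adjusted p = 0.0174). Hoxc4 had a difference of -4.45 on the log2 scale (SE 1.07, adjusted p = 0.0170). Hoxc5 had a difference of -6.77 on the log2 scale (SE 1.23, adjusted p = 0.0123), a fitted value, since Braf Arid2 KO under CKI held a single read of it. For each of them both CKI libraries were below both vehicle libraries with Arid2 lost. In Braf all CKI libraries were above all vehicle libraries for these members except Hoxb7, where CKI replicate 5 was below 1 vehicle library. Each Braf Arid2 KO group had 2 libraries, and the calls were lost without either of its CKI libraries.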

How the results depend on the processing

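Members called are counted here, none of which reversed its direction under any alternative. RLE size factors and no filter kept every count within 1.5 times. With the replicate number as a block, 5 were called for Arid1a KO over Braf under vehicle, 1 under CKI, 1 for Arid2 KO over Braf under CKI, 0 for CKI over vehicle in Braf Arid1a KO and 1 in Braf Smarcb1 KO, and the other counts stayed within 1.5 times. The numbers share no stated source, and deviations of same-numbered libraries correlated at 0.0561 to 0.241 in Arid1a KO and WT, the only groups that share 3 numbers, where 4 of 6 libraries correlated best with their own number, and at -0.535 to 0.0713 elsewhere. With the leukocyte level as a covariate, 8 were called for Smarcb1 KO over Braf under vehicle, 0 for CKI in Braf, 0 in Braf Arid1a KO, 2 in Braf Arid2 KO and 0 for Arid1a KO over WT. With the fibroblast level, 1 was called for Arid1a KO over Braf under vehicle, 1 under CKI, 4 for Braf over WT and 0 for Arid1a KO over WT. With only the groups compared, 10 were called for Smarcb1 KO and 3 for Arid1a KO over Braf under vehicle, 0 for Arid1a KO under CKI, 1 for CKI in Braf, 2 in Braf Arid2 KO, 0 in Braf Smarcb1 KO and 1 for Arid1a KO over WT. DESeq2 called 1 for Arid2 KO over Braf under vehicle, 8 for Arid1a KO and 9 for Arid2 KO under CKI, 6 for CKI in Braf Arid1a KO, 3 in Braf Arid2 KO, 8 in Braf Smarcb1 KO, 5 in Braf and 3 for Braf over WT. The share of all genes called under each alternative is not given, so these shifts cannot be told from a shift over all genes. Their cause was not tested.

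Leaving out 1 library at a time gave 12 to 17 for Smarcb1 KO over Braf under vehicle and 13 to 15 under CKI. It gave 3 to 7 for Arid1a KO under vehicle and 0 to 3 under CKI, 0 throughout for Arid2 KO under vehicle and 0 to 4 under CKI. For CKI over vehicle it gave 0 to 4 in Braf Smarcb1 KO, 0 to 1 in Braf Arid2 KO, 0 to 2 in Braf Arid1a KO and 1 to 4 in Braf. It gave 0 to 3 for Braf over WT, 1 to 4 for Arid1a KO over WT, 0 to 5 for the Arid2 difference of responses and 0 for the other differences. Where this leaves a group with 1 library, that library is assumed to vary like the others. Members near 0 are limited by depth, and 11 were too low to test.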
